A study of Saccharomyces cerevisiae with 8 samples.

Results

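The meiotic genes SPO11, SPO13 and NDT80 of budding yeast each lie opposite a Xrn1-sensitive unstable transcript (XUT), a long noncoding RNA that accumulates when the cytoplasmic exonuclease Xrn1 is missing. The transcripts are XUT0418 (antisense to SPO11), XUT1288 (antisense to SPO13) and XUT1304 (antisense to NDT80), and they were taken by name. All of their listed open reading frames (ORFs) are described here, 42 of 13941 ORFs in the table. They comprise 16 ORFs in XUT0418, 9 in XUT1288 and 17 in XUT1304, of 1637 XUTs in all.

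Ribosome profiling, in which the stretches of RNA covered by ribosomes survive a nuclease and are sequenced, was performed on Saccharomyces cerevisiae BY4741 in mid-log phase (OD600 of 0.5, YPD, 30 °C). All cells were MATa and carried the alleles his3Δ1, leu2Δ0, met15Δ0 and ura3Δ0. The 4 groups were untreated wild type (WT), WT given cycloheximide (CHX), which stops ribosomes during elongation, for 15 min, an untreated mutant with the allele written upf1*::kanMX4, and that mutant given CHX for 15 min. Upf1 is a helicase needed for nonsense-mediated decay, which degrades RNAs whose translation ends early. The 2 biological replicates of a group are merged in the table, leaving 1 value per ORF and group. There is therefore no replicate error, and no difference between groups was tested. The 95% intervals are exact and cover counting error only.

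SPO11 encodes the transesterase that makes the DNA double-strand breaks of meiotic recombination. NDT80 encodes the transcription factor that switches on the middle meiotic genes and commits cells to the meiotic divisions. SPO13 encodes a regulator that keeps sister chromatids together in the first division. A haploid MATa strain growing in rich medium does not enter meiosis, and these genes are known to be repressed in such cells. Antisense transcription over meiotic genes is known in yeast. Ribosomes that translate a short ORF of a noncoding RNA and end far from its 3′ end can expose it to nonsense-mediated decay.

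All of the genes are on chromosome 8 (build R64). The SPO11 coding sequence (CDS, YHL022C) occupies chr8:62961-64157 on the minus strand, and the ORFs of XUT0418 run from 63040 to 64239 on the plus strand. The SPO13 CDS (YHR014W) occupies chr8:132047-132922 on the plus strand, and the ORFs of XUT1288 run from 132845 down to 131902 on the minus strand. The NDT80 CDS (YHR124W) occupies chr8:356561-358444 on the plus strand, and the ORFs of XUT1304 run from 358271 down to 356392 on the minus strand. Each series of ORFs therefore enters the gene at its 3′ end and runs past its start codon. Of the 42 ORFs, 39 overlap the CDS of their gene on the opposite strand. The other 3, the last ORF of each XUT, lie beyond the start codon of the gene. ORF length ranged from 15 to 165 nt (median 60 nt).

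The sequences of the ORFs that held most of the reads, and of the first ORF of each XUT, show how short these reading frames are and where the overlapping pairs start. They are read from the R64 genome, 5′ to 3′ on the strand of the XUT, from 6 nt before the start codon through the stop codon. Capitals mark the start and stop codons, and ORFs are numbered from the 5′ end of each XUT.
XUT0418 ORF 1, chr8:63034-63123, plus strand: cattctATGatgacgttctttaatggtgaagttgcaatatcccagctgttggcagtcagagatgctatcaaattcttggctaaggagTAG
XUT0418 ORF 2, chr8:63050-63196, plus strand: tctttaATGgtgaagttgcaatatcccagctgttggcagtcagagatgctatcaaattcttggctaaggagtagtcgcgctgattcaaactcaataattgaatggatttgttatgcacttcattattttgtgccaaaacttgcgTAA
XUT1288 ORF 1, chr8:132768-132851, minus strand: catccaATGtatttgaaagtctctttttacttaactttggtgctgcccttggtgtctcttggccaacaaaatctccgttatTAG
XUT1304 ORF 1, chr8:358245-358277, minus strand: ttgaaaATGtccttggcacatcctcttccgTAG
XUT1304 ORF 4, chr8:357795-357902, minus strand: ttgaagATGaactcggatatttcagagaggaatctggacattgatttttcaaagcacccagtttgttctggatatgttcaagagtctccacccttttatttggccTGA
XUT1304 ORF 5, chr8:357701-357835, minus strand: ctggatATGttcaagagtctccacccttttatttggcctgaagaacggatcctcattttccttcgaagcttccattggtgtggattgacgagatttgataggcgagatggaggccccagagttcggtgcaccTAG
ORF 2 of XUT0418 starts 16 nt after ORF 1, in another reading frame, and shares 65 nt with it. ORF 5 of XUT1304 starts 67 nt after ORF 4, also in another frame, and shares 32 nt with it. Reads in these stretches can count for both ORFs.

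All listed XUT ORFs together had 5897 reads in untreated WT and 35728 with CHX, and 26791 in untreated upf1 and 44035 with CHX. Library depths are not known from these sums, which leave out all other RNAs. Levels are therefore given as shares of the reads in a set of 9304 ORFs that do not overlap within a transcript, chosen by most reads first. That set had 4471 reads in untreated WT and 27359 with CHX, and 20005 in untreated upf1 and 33563 with CHX. Whether reads were counted by strand is not given in the sources used here, so reads from a sense transcript cannot be told apart from reads of the XUT. Fewer RNA molecules and fewer ribosomes on each cannot be told apart either.

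Most footprints on these XUTs lay in few ORFs. Of the 42 ORFs, 30 (71.4%) had a read in at least 1 condition and 12 had none, while 60.7% of all listed ORFs had a read. Here 5 ORFs (11.9%, against 8.03% of all listed ORFs) reached 10 reads in any condition: ORFs 1 and 2 of XUT0418, ORF 1 of XUT1288 and ORFs 4 and 5 of XUT1304. The reads crowded opposite the 3′ part of each gene. Of the reads in non-overlapping ORFs, summed over the 4 conditions, 98.4% in XUT0418 (63 of 64, 95% interval 91.6 to 99.96) were in ORFs that start within the 50% of the CDS nearest the stop codon. The share was 96.99% in XUT1288 (129 of 133, 92.5 to 99.2) and 81.5% in XUT1304 (88 of 108, 72.9 to 88.3). That part of the gene lies opposite the ORFs nearest the 5′ end of each XUT. The same share was not taken over all XUTs opposite a CDS, so whether it is particular to these XUTs was not tested. The 3 ORFs beyond the start codons of the genes held 2 reads together.

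**Figure D1:**
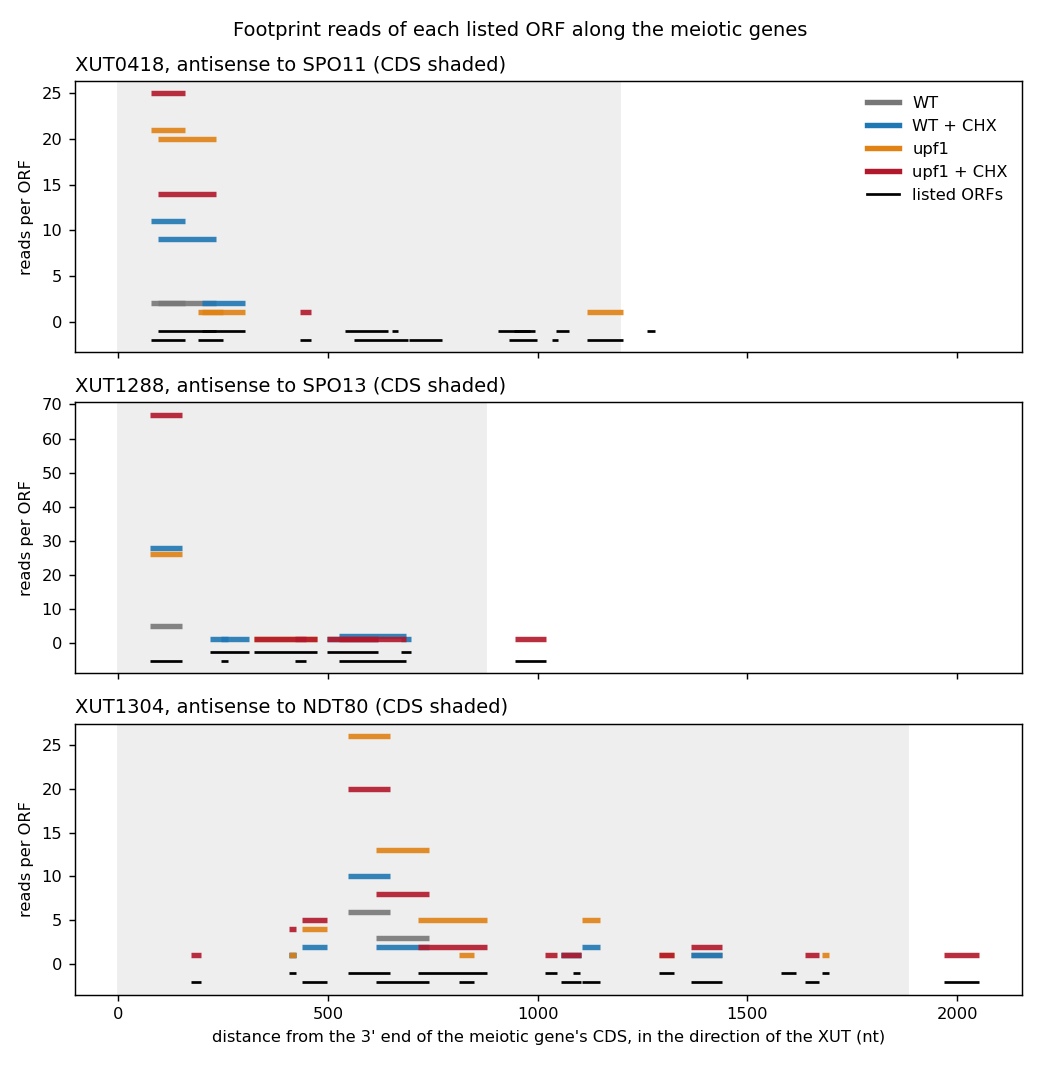
Reads in each listed ORF (vertical axis, reads per ORF) of the 3 XUTs against the distance in nt from the 3′ end of the meiotic gene's CDS, in the direction of the XUT. Coloured bars span ORFs with reads in WT, WT + CHX, upf1 or upf1 + CHX, black bars show every listed ORF, and the CDS is shaded. The tallest bars lie in the first ORFs of XUT0418 and XUT1288 (up to 25 and 67 reads) and in ORF 4 of XUT1304 (up to 26 reads).

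In XUT0418, opposite the recombination gene SPO11, almost all reads fell in the first pair of overlapping ORFs. ORF 1 (81 nt), whose first codon lies 79 nt inside the end of the SPO11 CDS, held 2 reads in untreated WT and 11 with CHX, and 21 in untreated upf1 and 25 with CHX. Per 100 nt of ORF that was 2.47, 13.6, 25.9 and 30.9 reads. ORF 2 (138 nt) held 2, 9, 20 and 14 reads in the same order, or 1.45, 6.52, 14.5 and 10.1 per 100 nt. Its last 43 nt are also covered by ORF 3 of 60 nt, which held 1 read, in upf1. In counts, both leading ORFs had their fewest reads in WT, and only ORF 1 had more reads with CHX than without it in upf1. These counts are not scaled to the totals of the conditions, which were lowest in WT. In upf1 the total of the non-overlapping ORFs, of which shares are taken, was 20005 reads without CHX and 33563 with it. As a share, the whole of XUT0418 was lower in upf1 with CHX than without it (7.75 against 11.5 per 10000 reads in XUT ORFs). ORF 4 had 2 reads in WT + CHX and 1 in upf1, and the 12 ORFs after it held 2 reads in all conditions together.

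In XUT1288, opposite the meiosis I regulator SPO13, 1 ORF carried the transcript. ORF 1 (75 nt), which begins 77 nt inside the end of the SPO13 CDS, held 5 reads in untreated WT and 28 with CHX, and 26 in untreated upf1 and 67 with CHX. Per 100 nt that was 6.67, 37.3, 34.7 and 89.3 reads, and at 168 reads per 100 nt over the 4 conditions it was the densest of the 42 ORFs. The deposited pooled count of this ORF was 130, 4 more than the sum of its conditions, the only such difference among the 42 ORFs. ORF 1 overlaps no other listed ORF. The other 8 ORFs of XUT1288 held 1 to 3 reads each over the 4 conditions, and none in WT.

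XUT1304, opposite the transcription factor gene NDT80, had a different layout, with its most-read ORF further downstream. ORF 1 (24 nt), 173 nt inside the end of the NDT80 CDS, held 1 read, in upf1 + CHX. ORF 4 (99 nt), 548 nt inside, held 6 reads in untreated WT and 10 with CHX, and 26 in untreated upf1 and 20 with CHX, or 6.06, 10.1, 26.3 and 20.2 per 100 nt. ORF 5 (126 nt) held 3, 2, 13 and 8 reads in the same order. Unlike the leading ORF of XUT1288, both had more reads in upf1 without CHX than with it. ORFs 2, 3, 6 and 11 held 7, 11, 7 and 7 reads over the 4 conditions, and no other ORF of XUT1304 held more than 4.

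The most-read ORF held 92.2% of the non-overlapping reads in XUT0418 (59 of 64, 82.7 to 97.4), 94.7% in XUT1288 (126 of 133, 89.5 to 97.9) and 57.4% in XUT1304 (62 of 108, 47.5 to 66.9). When all listed ORFs are summed, so that shared reads count more than once, the shares in XUT0418 and XUT1304 were 53.6% and 45.9%. Among the 365 XUTs with at least 50 such reads and at least 5 ORFs, the median share was 62.4%. Of those XUTs, 85.5% had a smaller share than XUT0418, 89.6% a smaller one than XUT1288 and 41.6% a smaller one than XUT1304. Their most-read ORF was ORF 1 in 47.9% and ORF 4 or a later one in 25.8%.

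By transcript, the non-overlapping ORFs of XUT0418 held 2 reads in untreated WT and 13 with CHX, and 23 in untreated upf1 and 26 with CHX. Those of XUT1288 held 5, 31, 27 and 70 reads in that order, and those of XUT1304 held 9, 17, 43 and 39. All of these counts were above the median XUT, which had 0, 5, 2 and 5 reads. Over the 4 conditions 334 of the 1637 XUTs had more reads than XUT0418, 143 more than XUT1288 and 186 more than XUT1304.

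Per 10000 reads in XUT ORFs, XUT0418 had 4.47 in WT (95% interval 0.542 to 16.1), 4.75 in WT + CHX (2.53 to 8.12), 11.5 in upf1 (7.29 to 17.2) and 7.75 in upf1 + CHX (5.06 to 11.3). XUT1288 had 11.2 (3.63 to 26.1), 11.3 (7.70 to 16.1), 13.5 (8.90 to 19.6) and 20.9 (16.3 to 26.3) in the same order. XUT1304 had 20.1 (9.21 to 38.2), 6.21 (3.62 to 9.95), 21.5 (15.6 to 28.9) and 11.6 (8.26 to 15.9). XUT0418 had its highest share in upf1 and XUT1288 in upf1 + CHX. XUT1304 had similar shares in WT and upf1, and which was higher changed when the 2-micron plasmid was left out of the totals. The WT intervals were wide enough to span most of the other values.

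**Figure D2:**
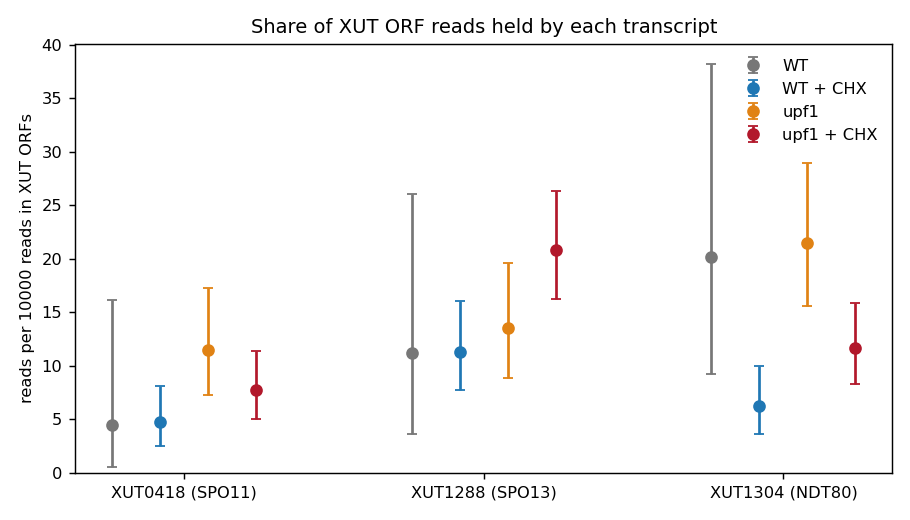
Reads in each of the 3 XUTs per 10000 reads in XUT ORFs (vertical axis) in the 4 conditions, 1 merged value each, with exact 95% binomial intervals for counting error as bars. XUT1288 is highest in upf1 + CHX (20.9), while XUT1304 is lower in each CHX condition (6.21 and 11.6) than without CHX (20.1 and 21.5).

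The first comparison was upf1 against WT without CHX. The share of XUT0418 was 2.57-fold as large in upf1, on 23 and 2 reads, with an interval of 0.635 to 22.5. It was 1.21-fold as large for XUT1288 (0.458 to 4.01, on 27 and 5 reads) and 1.07-fold for XUT1304 (0.513 to 2.49, on 43 and 9 reads). All of these intervals include 1. Of the 278 XUTs with at least 20 reads in this pair of conditions, 56.1% had a share at least 1.5-fold higher in upf1 and 11.9% one at least 1.5-fold lower, with a median ratio of 1.66. Of the 3 XUTs here, 1 was past 1.5-fold, XUT0418. A smaller ratio than that of XUT0418 was found in 68.3% of XUTs, than that of XUT1288 in 32.7% and than that of XUT1304 in 28.4%. Leaving the 2-micron plasmid, which held 25.4% of the WT reads and 10.9% of the upf1 reads, out of the totals gave 2.15 for XUT0418, 1.01 for XUT1288 and 0.894 for XUT1304. The median XUT then had 1.40, with 46.4% at least 1.5-fold higher and 16.3% at least 1.5-fold lower.

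With CHX, all 3 XUTs took a larger share in upf1 than in WT. The ratio was 1.63 for XUT0418 (0.808 to 3.46, on 26 and 13 reads), 1.84 for XUT1288 (1.19 to 2.91, on 70 and 31 reads) and 1.87 for XUT1304 (1.03 to 3.53, on 39 and 17 reads). The intervals of XUT1288 and XUT1304 lie above 1, and that of XUT0418 includes it. Across the 634 XUTs with at least 20 reads in these conditions the median ratio was 0.968, and 15.9% were at least 1.5-fold higher and 19.2% at least 1.5-fold lower. All 3 XUTs were past 1.5-fold higher, although with all listed ORFs summed XUT0418 came to 1.48. A smaller ratio than that of XUT0418 was found in 87.4% of XUTs, than that of XUT1288 in 93.1% and than that of XUT1304 in 93.5%. The XUTs were chosen with earlier results of these data known, so these positions are a description.

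CHX was next compared with no treatment in WT. XUT1304 took 0.309-fold its share without CHX (0.130 to 0.786, on 17 and 9 reads), an interval below 1. XUT1288 took 1.01-fold (0.391 to 3.34, on 31 and 5 reads) and XUT0418 1.06-fold (0.240 to 9.70, on 13 and 2 reads). Of the 412 XUTs with at least 20 reads, 55.8% were at least 1.5-fold higher with CHX and 12.6% at least 1.5-fold lower, with a median of 1.67. Only 2.18% of them had a smaller ratio than XUT1304, while 25.2% had a smaller one than XUT1288. XUT0418 had too few reads for this count. Without the plasmid in the totals the ratios of XUT1304, XUT1288 and XUT0418 were 0.246, 0.808 and 0.848, so the last pair changed side. The median XUT then had 1.34, with 44.3% at least 1.5-fold higher and 18.8% at least 1.5-fold lower.

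In upf1, CHX was compared with no treatment in the same way, and the XUTs parted. XUT1304 took 0.541-fold its share without CHX (0.341 to 0.854, on 39 and 43 reads), again with an interval below 1. XUT0418 took 0.674-fold (0.370 to 1.24, on 26 and 23 reads), and XUT1288 took 1.55-fold (0.978 to 2.51, on 70 and 27 reads), both with intervals that include 1. Of the 539 XUTs with at least 20 reads, 36.9% were at least 1.5-fold higher with CHX and 18% at least 1.5-fold lower, with a median of 1.22. A smaller ratio than that of XUT1304 was found in 10.4% of XUTs, than that of XUT0418 in 18.4% and than that of XUT1288 in 64.6%. Without the plasmid in the totals the ratios of XUT1304, XUT0418 and XUT1288 were 0.511, 0.636 and 1.46. XUT0418 was then past 1.5-fold lower, and XUT1288 was no longer past 1.5-fold higher. The median XUT then had 1.15, with 34.3% at least 1.5-fold higher and 20.3% at least 1.5-fold lower. The comparisons share conditions with each other (each uses values that another also uses), so their ratios are not independent.

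The deposited phase score, which runs from 0 to 1, is a measure of how far reads keep to the 3-nt step of translating ribosomes. Its formula is not given in the sources used here, and an ORF with a single read usually scored 1. An ORF was called at a score of at least 0.32 with at least 10 reads in the condition, and a call does not show which frame was read. Of the 42 ORFs, none had 10 reads in WT, where 70.7% of all listed ORFs at that depth were called. In WT + CHX 1 of 3 was called, against 64.2% of all ORFs with 10 reads. In upf1 2 of 5 were called, against 62.9%, and in upf1 + CHX 2 of 4, against 72.6%. No ORF was called in more than 1 condition except ORF 1 of XUT0418.

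ORF 1 of XUT0418 scored 0.5 in WT (on 2 reads), 0.641 with CHX, and 0.436 and 0.191 in upf1 without and with CHX. It was above the threshold in WT + CHX and upf1. Among ORFs with read counts within 1.5-fold, 76.8% of 548 scored lower in WT + CHX and 63.3% of 229 in upf1. In upf1 + CHX, with its most reads, it was below the threshold, and only 9.88% of 344 such ORFs scored lower. ORF 2 scored 0.5 (on 2 reads), 0.618 (on 9 reads), 0.315 and 0.435 in the same order, just under the threshold in upf1. Of the ORFs with counts like those of ORF 2, 41.3% of 225 scored lower in upf1 and 45.1% of 539 in upf1 + CHX. These ORFs share 65 nt, and the scores do not tell which frame the shared reads followed.

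ORF 1 of XUT1288 had the most reads of the 42 ORFs and stayed under the threshold in every condition. It scored 0.25 in WT (on 5 reads), 0.254 with CHX, 0.311 and 0.211 in upf1 without and with CHX, and 0.283 over the pooled reads. Among ORFs with read counts within 1.5-fold of its own, 23.1% of 268 scored lower in WT + CHX, 37.8% of 172 in upf1 and 11.1% of 117 in upf1 + CHX. The median score of those ORFs was 0.364, 0.375 and 0.405.

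ORF 4 of XUT1304 scored 0.661 in WT (on 6 reads), 0.265 with CHX, and 0.264 and 0.442 in upf1 without and with CHX, so that only the last value was a call. Of the ORFs with similar counts, 18.8% of 639 scored lower in WT + CHX, 24.4% of 172 in upf1 and 51.4% of 432 in upf1 + CHX. ORF 5 scored 0.866 in WT (on 3 reads), 0.5 with CHX (on 2 reads), and 0.5 and, on 8 reads, 0.441 in upf1 without and with CHX. Its value in upf1, on 13 reads, was its only call, and 67.2% of 344 ORFs with similar counts scored lower there.

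**Figure D3:**
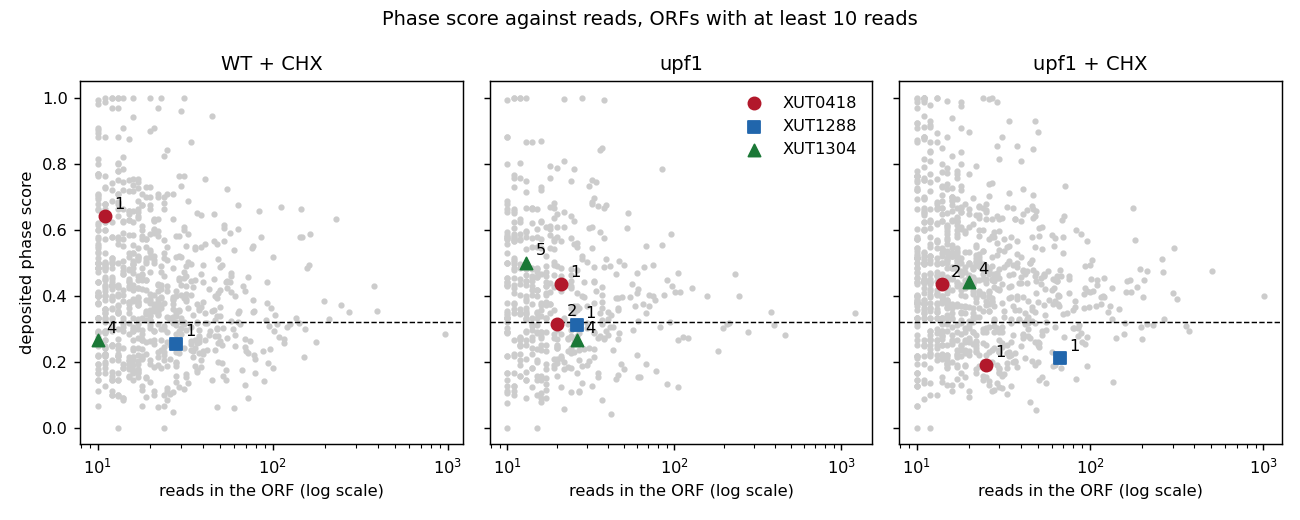
Deposited phase score (vertical axis, 0 to 1) against reads in the ORF (log scale) for ORFs with at least 10 reads in WT + CHX, upf1 and upf1 + CHX, with all listed ORFs in grey and ORFs of the 3 XUTs in colour, numbered from the 5′ end. The dashed line is the threshold of 0.32, and ORF 1 of XUT1288 lies below it in all 3 panels (0.254, 0.311 and 0.211).

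The XUTs shared a position that played no part in choosing them. A tRNA gene lies upstream of the first ORF on the same strand in each case. The gap is 213 nt from a tRNA-His gene (YNCH0001W, chr8:62755-62826) to XUT0418, 180 nt from a tRNA-Ser gene (YNCH0004C, chr8:133026-133107) to XUT1288 and 206 nt from a tRNA-Phe gene (YNCH0010C, chr8:358478-358569) to XUT1304. Of the 1634 XUTs outside the 2-micron plasmid, 17 (1.04%) had a same-strand tRNA gene within 300 nt upstream of the first ORF, and of the 1084 with an ORF opposite a CDS, 10 (0.923%) did. The window was chosen after the tRNA genes were seen. The other 14 such XUTs had 2 to 227 reads, with a median of 22.5. XUT boundaries were not used here, so whether the XUTs include or begin after the tRNA genes cannot be told apart. No long terminal repeat or Ty element lies between the first and last ORF of the 3 XUTs.

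Other genes of meiosis and spore formation with an antisense XUT were taken from a list of 83 genes. Of these, 24 lie opposite a listed XUT ORF, and their XUTs had a median of 35.5 reads over the 4 conditions (1 to 1028), against 13 for all 1084 XUTs with an ORF opposite a CDS. Of the 24, 7 had more reads than XUT1288 and XUT1304, and 9 had more than XUT0418. Those with most reads were XUT1511 opposite GAS2, XUT1283 opposite RIM4 and XUT1707 opposite SPR1. GAS2 encodes a glucanosyltransferase of the spore wall, RIM4 an RNA-binding protein that acts in early meiosis and holds back translation of middle meiotic mRNAs, and SPR1 an exo-glucanase of sporulation.

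XUT1511 held 99 reads in untreated WT and 385 with CHX, and 170 in untreated upf1 and 374 with CHX, but 1076 of the 1333 reads over all its ORFs fell in 7 ORFs over a long terminal repeat, whose copies can share reads. XUT1283 held 9, 83, 81 and 97 reads in the same order, and XUT1707 held 9, 79, 49 and 113. All 3 had their fewest reads in WT, the condition with the fewest reads in XUT ORFs. By share without CHX, XUT1511 was lower in upf1 than in WT (0.384-fold, 0.298 to 0.497). The shares of XUT1283 and XUT1707 were 2.01-fold and 1.22-fold as large in upf1. Without CHX, 9 of the 24 had at least 20 reads in upf1 and WT together. Of all 278 XUTs with that many reads, 56.1% were at least 1.5-fold higher in upf1 and 11.9% at least 1.5-fold lower. The shares of the 9 in upf1 over WT had a median of 1.22, with 3 at least 1.5-fold higher and 2 at least 1.5-fold lower. The higher ones were XUT1283, XUT0488 opposite SPO22 and XUT0326 opposite HFM1. The lower ones were XUT1511 and XUT0536 opposite LOH1, which had 0.569 (0.275 to 1.27).

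With CHX, 14 of the 24 had at least 20 reads in upf1 and WT together. Of all 634 XUTs with that many reads, 15.9% were at least 1.5-fold higher in upf1 and 19.2% at least 1.5-fold lower. The shares of the 14 in upf1 over WT had a median of 0.945, with 3 at least 1.5-fold higher and 0 at least 1.5-fold lower. The higher ones were XUT0198 opposite SPR28, a septin of sporulation (1.63), XUT0536 opposite LOH1 (1.59) and XUT1163 opposite DMC1, the meiotic strand-exchange protein (1.54), and all of their intervals include 1. XUT1283 opposite RIM4 had 0.953 (0.703 to 1.29) and XUT1707 opposite SPR1 1.17 (0.867 to 1.57). In upf1, CHX against none gave 3 of 14 at least 1.5-fold higher and 0 at least 1.5-fold lower, with a median of 1.25. Of all 539 XUTs with at least 20 reads, 36.9% were at least 1.5-fold higher and 18% at least 1.5-fold lower. The lowest of the 14 were XUT0488 opposite SPO22 at 0.707 (0.493 to 1.02) and XUT1283 opposite RIM4 at 0.714 (0.526 to 0.971). The interval of XUT1283 lies below 1, as does that of XUT1304 (0.541). In WT, 55.8% of all 412 XUTs with at least 20 reads were at least 1.5-fold higher with CHX and 12.6% at least 1.5-fold lower. Of the 11 other meiotic XUTs with that many reads, 6 were at least 1.5-fold higher and 3 at least 1.5-fold lower, with a median of 1.51. The lower ones were XUT0536 opposite LOH1 at 0.282 (0.128 to 0.657), below the 0.309 of XUT1304, XUT0986 opposite PCH2 at 0.490 (0.169 to 1.72) and XUT1511 opposite GAS2 at 0.636 (0.508 to 0.801).

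**Figure D4:**
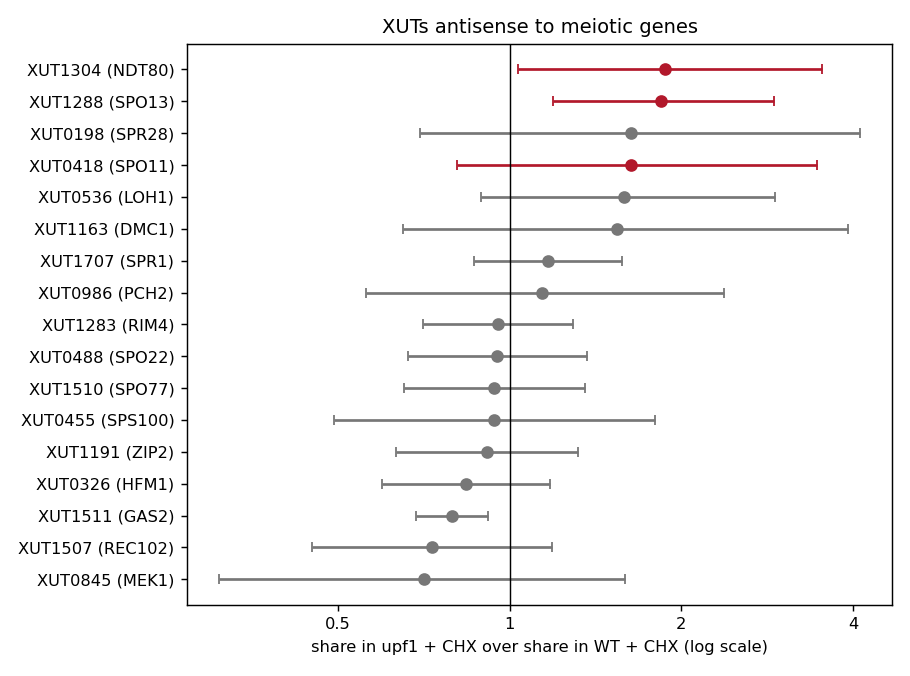
Share of XUT ORF reads in upf1 + CHX divided by that in WT + CHX (log scale) for XUTs opposite meiotic genes with at least 20 reads in these conditions, with exact 95% intervals for counting error, and with the XUTs opposite NDT80, SPO13 and SPO11 in red and the others in grey. The red points lie at 1.87, 1.84 and 1.63, and the interval of XUT0418 opposite SPO11 includes 1.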

How the data were processed

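The data were 1 table of ORFs with counts and scores in 4 conditions and pooled values, from 8 ribosome-profiling libraries. Per the labels' protocols, RNase I (5 units per A260) was applied to cushion-purified polysomes of 250 ml cultures, and after rRNA removal 10 ng of the protected RNA went into each library. The tools were HISAT2 2.2.0, cutadapt and UMI-tools, with build R64, per the submitters' processing notes. How the authors listed ORFs, scored them and merged replicates is not given in the sources used here. Each count is deposited as a whole number not scaled to depth, and the phase score is used as the authors deposited it.

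ORF coordinates count from 1 and leave out the stop codon. In the RefSeq R64 genome each of the 13912 ORFs outside the 2-micron plasmid had ATG at its start and a stop codon directly after its end. An ORF was opposite a CDS if they overlapped by at least 1 nt. Sums per transcript used ORFs that do not overlap within it, taken by pooled count. Shares have exact (Clopper-Pearson) 95% intervals, and ratios of shares have conditional exact ones. These intervals treat reads as independent molecules. The ratio code was checked on simulated data. ORFs described singly were the first and the most-read of each XUT and those with at least 10 reads in a condition. Of the other meiotic XUTs, the 3 with most reads were named by rule, and those past 1.5-fold were named after their values were seen. The XUTs and the lists were chosen with earlier results of these data known. The fold of 1.5, the minimum of 20 reads for ratios and the minimum of 50 reads and 5 ORFs were set after the table was seen. Python 3.11.15, pandas 2.3.3 and SciPy 1.17.1 were used.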

Additional observations from a re-analysis of the deposited data

Results flagged for a closer look

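Several effects pointed in opposite directions in the compared backgrounds. None of these differences was tested, since each condition has 1 merged value. The share of XUT0418 with CHX over that without was 1.06 in WT, on 2 WT reads, and 0.674 in upf1, and both intervals include 1. The WT ratio fell below 1 under each other scaling tried.

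The score of ORF 1 of XUT0418 differed by 0.141 between WT + CHX and WT and by -0.245 between upf1 + CHX and upf1. For ORF 1 of XUT1288 the CHX difference was 0.00425 in WT and -0.100 in upf1, and upf1 minus WT was 0.061 without CHX and -0.0436 with it. For ORF 4 of XUT1304 the CHX difference was -0.397 in WT and 0.178 in upf1, and upf1 minus WT was -0.397 without CHX and 0.178 with it. The WT values rest on 2, 5 and 6 reads in that order. The CHX and upf1 differences of an ORF use the same scores, so they are not independent. For ORF 4 of XUT1304 the scores in WT + CHX (0.265) and upf1 (0.264) were nearly equal, so its pairs of differences nearly coincide.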

How the results depend on the processing

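No paired analysis was possible because the table holds 1 merged column per condition, and leaving out a replicate was not run for the same reason. The 12 ratios of shares stayed within their counting intervals under all 4 other scalings (totals without the plasmid, also without ORFs on a same-strand CDS, all listed ORFs, and median-of-ratios size factors). Many of these intervals are wide, so this was a weak check. Some ratios changed side of 1 with the scaling. WT + CHX over WT ranged from 0.842 to 1.06 for XUT0418 and 0.803 to 1.12 for XUT1288. Without CHX, upf1 over WT ranged from 0.894 to 1.19 for XUT1304. With CHX, upf1 over WT ranged from 1.48 to 1.67 for XUT0418, 1.72 to 1.88 for XUT1288 and 1.85 to 2.01 for XUT1304. XUT1304 with CHX over without ranged from 0.245 to 0.309 in WT and 0.460 to 0.541 in upf1.

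Counting all listed ORFs, reads of XUT0418 were 44 in upf1 and 40 in upf1 + CHX, and taking the longest ORF first gave 15 in upf1 + CHX. These settings count overlapping ORFs again or swap ORF 1 for ORF 2. The most-read ORF then held 53.6% of the reads of XUT0418 and 45.9% of those of XUT1304. With a read minimum of 5, calls numbered 1 in untreated WT and 2 with CHX, and 4 in upf1 both without and with CHX. Without a minimum they numbered 7, 14, 12 and 18, since single reads usually score 1. At a score of 0.5 they numbered 1 in upf1 and 0 in upf1 + CHX. Ratios to untreated WT rest on 2 to 9 WT reads per XUT.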

Other observations

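The start codons of the 6 ORFs printed above had an A at the third base before them, the base most favoured in yeast, in 2 cases, ORFs 1 and 4 of XUT1304. Of all 42 ORFs, 8 (19.0%) had it, against 29.0% of the 13912 listed ORFs outside the plasmid and 31.0% of the first ORFs. The most-read ORF of XUT1288 has C there, and ORFs 1 and 2 of XUT0418 have T.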
